A study of Mus musculus with 10 samples.

Results

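The 9 genes described here encode carriers that move the transmitters glutamate and GABA across membranes. They were chosen by symbol, all 9 symbols were found once among the 30406 genes counted in every library, and each was followed over the cell types of the mouse medial prefrontal cortex and between mice of different social rank. Slc17a7, Slc17a6 and Slc17a8 encode the vesicular glutamate transporters VGLUT1, VGLUT2 and VGLUT3, and Slc32a1 encodes the vesicular GABA transporter VGAT. Slc1a1, Slc1a2 and Slc1a3 encode the plasma membrane glutamate transporters EAAC1, GLT-1 and GLAST. Slc6a11 and Slc6a13 encode the plasma membrane GABA transporters GAT3 and GAT2.

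Cells were taken from cortical punches of that region 1 day after the final tube test, in which a mouse wins by making its opponent back out of a tube. All mice were C57BL/6N males over 2 months old. Rank 1 mice stood at the top and rank 4 mice at the bottom of their group, and both ranks had 5 droplet libraries (10x Genomics), each of tissue pooled from 2 or 3 mice. Both ranks shared strain, sex, age, region and dissociation, and no other treatment or genotype is named. The library was the replicate, so the errors below are the spread between pools of mice, and how mice were assigned to pools within a rank is not given in the sources used here.

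Libraries held between 4442750 and 29278466 counted molecules (UMIs, unique molecular identifiers), and 46285 of 64937 barcodes were kept as cells. Replicates 1 to 3 of both ranks and replicates 4 and 5 of both ranks carried different software versions in their headers and stood apart in expression. In excitatory neurons, 42.7% of genes averaging at least 10 CPM (a gene's UMIs scaled to a fixed total per sample) had levels that did not overlap between these sets of libraries. Values are therefore given for both sets where they differ. At most 104 barcodes were shared by any 2 libraries, 1.70% of the smaller one. Cell types were named from marker genes, without the 9 genes and their related lists, and each name stands for cells resembling that type. Named were 16727 excitatory neurons, 9011 astrocytes, 4520 endothelial cells, 3632 microglia, 3260 oligodendrocyte precursors, 2325 oligodendrocytes, 2188 inhibitory neurons, 1694 pericytes, 498 smooth muscle cells, 317 erythroid cells, 308 committed oligodendrocyte precursors, 115 perivascular macrophages and 110 fibroblasts. Layer 6b neurons were not found as a cluster of their own. A level is the share of a gene's UMIs in the summed UMIs of a library and cell type, scaled to 1e+06 and written as CPM, taken where a library held at least 20 cells of the type. Levels were compared across cell types within a gene and not between genes. Since the types were made by clustering these cells, their levels are a description with no test.

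Glutamatergic neurons load glutamate into synaptic vesicles with a vesicular transporter that is driven by the proton gradient of the vesicle. GABAergic neurons load GABA with the vesicular GABA transporter. Released glutamate is cleared largely by astrocytes through GLT-1 and GLAST, which couple uptake to the sodium gradient, and is returned to neurons as glutamine. In cortex VGLUT1 is the main vesicular transporter of pyramidal cells, VGLUT2 marks thalamic input and some deep-layer cells, and VGLUT3 is known from cells that also release another transmitter.

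**Figure D1:**
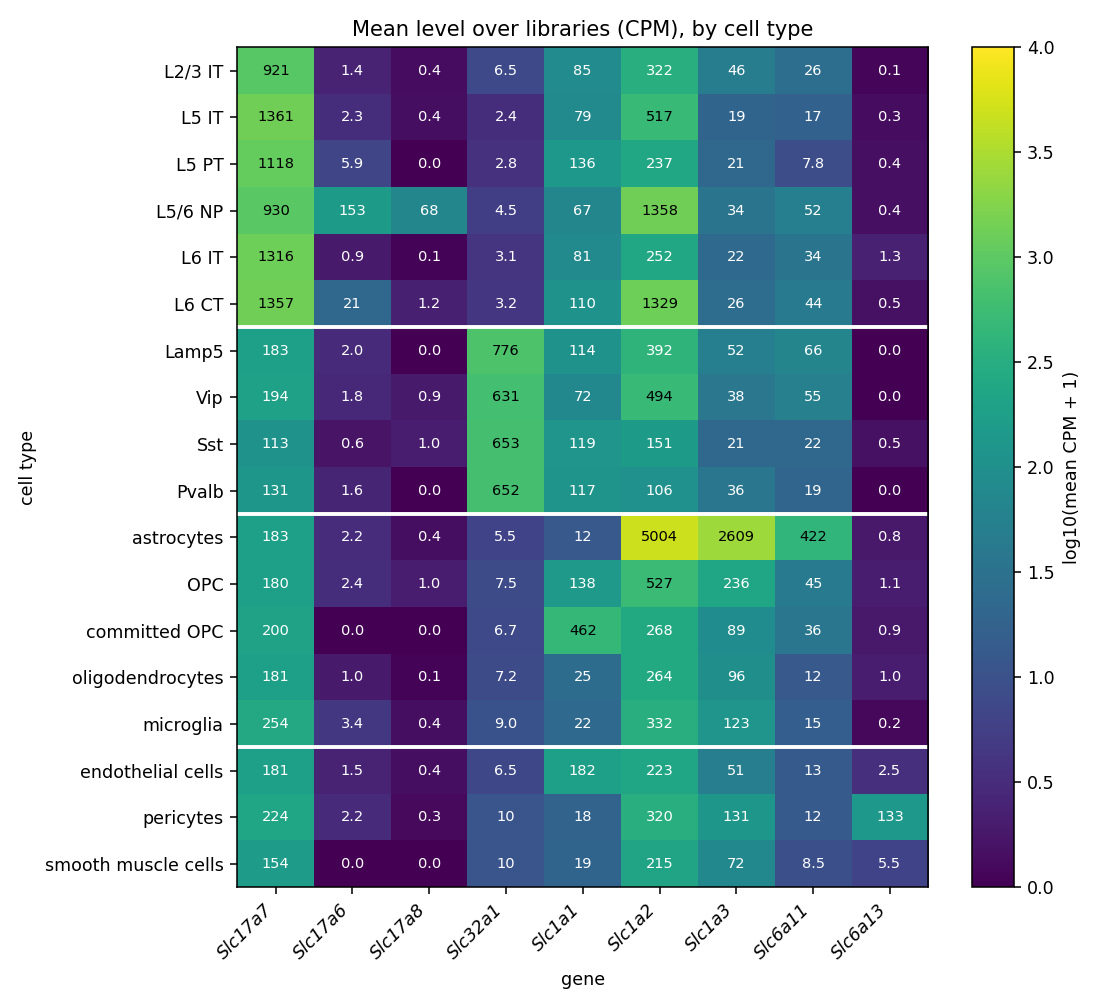
Mean level in CPM of each gene (columns) in each cell type (rows), averaged over libraries with at least 20 cells, with colour on a log10 scale after adding 1 CPM. White lines separate excitatory neurons, inhibitory neurons, glia and vessel cells. Slc17a7 is highest in the 6 excitatory subclasses (921 CPM or more), Slc32a1 in the 4 inhibitory subclasses (631 CPM or more), and Slc1a2, Slc1a3 and Slc6a11 peak in astrocytes.

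Slc17a7 (7:45163949-45176142, plus strand, GRCm38) was high in every excitatory subclass. Its level was 1361 ± 441 CPM (SD, n = 10 libraries) in layer 5 intratelencephalic (L5 IT) neurons, 1357 ± 420.5 (n = 8) in layer 6 corticothalamic (L6 CT) neurons and 1316 ± 429 (n = 9) in L6 IT neurons. Of the 1751 L6 IT cells, 1015 lay in 1 subcluster with 1 marker of excitatory neurons (Oprk1) and 2 of inhibitory neurons (Npy and Cck) among its 10 leading genes. Slc17a7 was 1118 ± 344 (n = 10) in layer 5 pyramidal tract (L5 PT) neurons, 930.5 ± 334 (n = 7) in near-projecting (L5/6 NP) neurons and 921 ± 422 (n = 10) in L2/3 IT neurons. Neighbours in this order were not all apart. L5 IT exceeded L6 CT in 7 of 8 libraries and L5 PT exceeded L5/6 NP in 7 of 7, whereas L6 CT exceeded L6 IT in 4 of 8. L5/6 NP exceeded L2/3 IT in only 1 of the 7 libraries that held both. Over all excitatory neurons the level was 778 CPM in replicates 1 to 3 and 1628 CPM in replicates 4 and 5, 2.09 times as high, with no overlap.

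UMIs of Slc17a7 were also counted outside excitatory neurons, and whether they came from free RNA or doublets was not tested. In microglia, which are not known to make this transporter and serve as the comparison below, it lay between 26.1 and 182 CPM in the libraries of replicates 1 to 3 and between 222 and 717 CPM in those of replicates 4 and 5 (24.8% of genes there did not overlap). Astrocytes (183 CPM on average), endothelial cells (181) and oligodendrocyte precursors (180.5) were at the same level as microglia (254) or below it. Erythroid cells, with 20 cells in only 3 libraries, had 102, 186 and 1579 CPM, and L2/3 IT neurons were above them in 2 of the 3. All 6 excitatory subclasses were above microglia in every library that held both, by 2.67 to 5.35 times on average. After every cell was thinned to 1000 UMIs, 71.2% of excitatory neurons had a UMI of Slc17a7 (95% exact binomial interval 70.5% to 72.0%, counting error only) against 18.5% of microglia (17.0% to 20.1%).

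Slc17a6 (7:51622006-51671119, plus strand) had its highest level in the near-projecting neurons, cells of layers 5 and 6 that send few long axons. Over the 7 libraries with at least 20 such cells it was 74.0, 33.8, 232 and 190.2 CPM in replicates 1, 2, 4 and 5 of rank 1, and 120.4, 228 and 191 CPM in replicates 1, 4 and 5 of rank 4. The 4 libraries of replicates 4 and 5 were all above the 3 others (means of 210.3 and 76.0 CPM), and the ranks overlapped. In these neurons 26.6% of genes with at least 10 CPM did not overlap between the sets. L6 CT neurons followed with 21.0 ± 8.89 CPM (n = 8) and were below L5/6 NP neurons in 6 of 6 libraries. L5 PT neurons had 5.92 ± 5.28 CPM and were above microglia (3.39 ± 4.33 CPM) in 6 of 10 libraries, so they could not be told from microglia here. L5 IT, L6 IT and L2/3 IT neurons held at most 2.28 CPM on average.

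Slc17a8 (10:89574020-89621253, minus strand) was found in the same near-projecting neurons. Its level was 65.7, 33.8, 72.8 and 47.6 CPM in replicates 1, 2, 4 and 5 of rank 1 and 78.9, 109 and 69.8 CPM in replicates 1, 4 and 5 of rank 4. All 7 libraries had it, with a mean of 68.3 ± 24.0 CPM (SD, n = 7), and here the sets of libraries overlapped. The next subclass, L6 CT, had 1.25 ± 1.39 CPM, and in L5 PT neurons no UMI was counted among 1090 cells. Microglia held 0.402 CPM on average over the same 10 libraries.

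**Figure D2:**
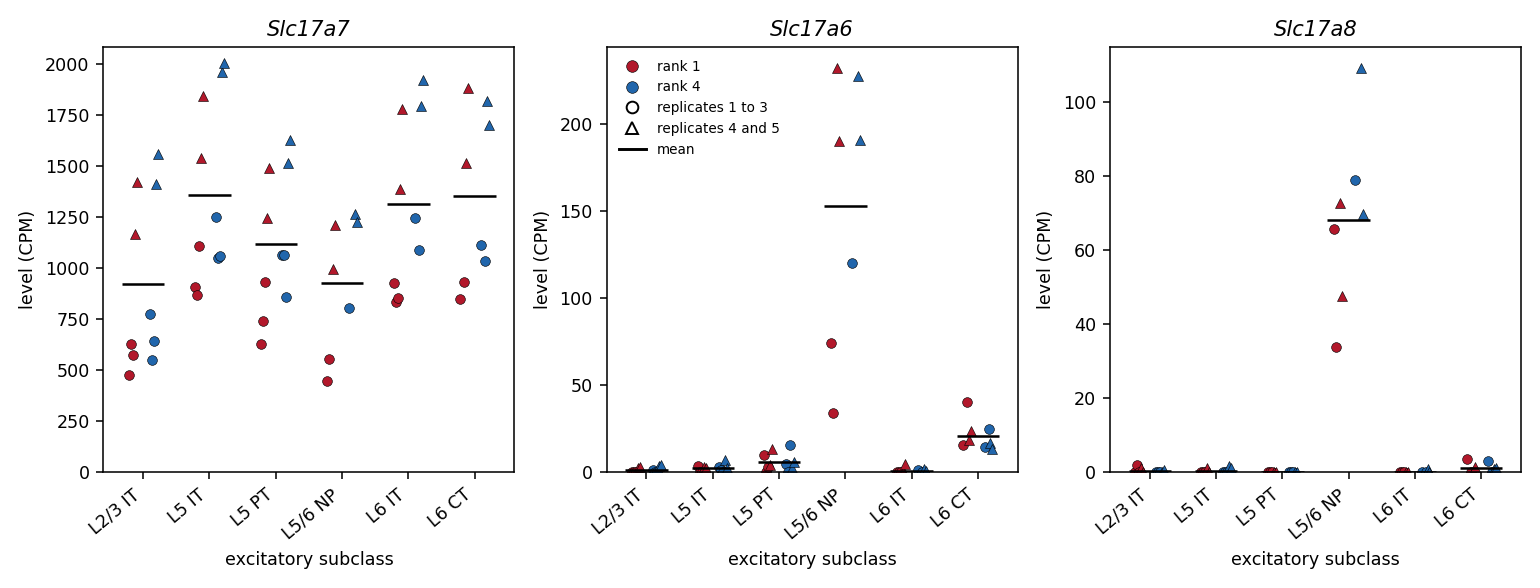
Level in CPM of the 3 vesicular glutamate transporter genes in the 6 excitatory subclasses, 1 point per library with at least 20 cells, coloured by rank and shaped by replicate set, with the mean as a line. Slc17a7 is in all 6 subclasses and higher in replicates 4 and 5, while Slc17a6 and Slc17a8 peak in L5/6 NP neurons in the 7 libraries with at least 20 of these cells.

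The near-projecting neurons held UMIs of all 3 vesicular glutamate transporter genes. Of 862 such cells, 189 had UMIs of Slc17a7 and Slc17a6, 60 of Slc17a7 and Slc17a8, and 42 of all 3 genes. Only 20 had Slc17a6 alone, 5 Slc17a8 alone and 3 the latter pair without Slc17a7. A further 439 had Slc17a7 alone and 104 had none, at a median of 2027 UMIs per cell. After thinning to 1000 UMIs, 16.1% of these cells had a UMI of Slc17a6 (13.5% to 18.9%) and 6.43% one of Slc17a8 (4.78% to 8.43%). The shares in microglia were 0.158% and 0.0394%. In L6 CT neurons 1.82% had a UMI of Slc17a6 (1.41% to 2.31%, n = 3622 cells).

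Because Slc17a6 and Slc17a8 peaked in the same neurons, the stretch before their start sites is shown, from 250 to 11 bases upstream of the first RefSeq start listed for each gene (RefSeq, GRCm38.p6, 5′ to 3′ along the gene). Capitals mark the longest run that both windows share with at most 1 mismatch.
Slc17a6, chr7:51621580-51621819, plus strand: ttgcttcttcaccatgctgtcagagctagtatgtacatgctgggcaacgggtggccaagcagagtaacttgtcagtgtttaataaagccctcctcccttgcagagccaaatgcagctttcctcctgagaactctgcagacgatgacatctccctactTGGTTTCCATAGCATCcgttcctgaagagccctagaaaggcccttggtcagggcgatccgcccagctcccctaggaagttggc
Slc17a8, chr10:89621260-89621499, minus strand: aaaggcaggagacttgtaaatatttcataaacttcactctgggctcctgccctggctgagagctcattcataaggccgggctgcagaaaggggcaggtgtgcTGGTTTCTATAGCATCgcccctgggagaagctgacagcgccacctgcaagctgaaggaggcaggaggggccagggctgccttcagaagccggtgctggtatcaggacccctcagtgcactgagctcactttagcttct
The run of 16 bases matched at 15 and began 93 bases before the start of Slc17a6 and 148 bases before that of Slc17a8. It was the longest among the 36 pairs of the 9 genes' windows on either strand, the next pair sharing 14 bases. Written as TGGTTTCNATAGCATC and searched on both strands, it was in 2 of 32851 windows of the same length (0.00609%), those of Slc17a6 and Slc17a8. The run was found by comparing these 2 windows, so its presence in both is no test, and a match of letters is not a binding site. Neither Slc17a7 nor Slc32a1 had it.

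Slc32a1 (2:158610767-158615748, plus strand) was high in inhibitory neurons and low in all other types measured. It was 776 ± 259 CPM (n = 4 libraries) in Lamp5, 653 ± 173 (n = 8) in Sst, 652 ± 146 (n = 6) in Pvalb and 631 ± 177 (n = 6) in Vip neurons. These 4 subclasses were not clearly ordered, with Lamp5 above Sst in 3 of 4 libraries, Sst above Pvalb in 3 of 6 and Pvalb above Vip in 3 of 5. In excitatory subclasses it held 2.40 to 6.51 CPM and in microglia 9.04 ± 7.22 CPM, so those values lie at or below the level in microglia. Over all inhibitory neurons the 10 libraries ran from 492 through a median of 568 to 936 CPM. After thinning, 41.1% of inhibitory neurons had a UMI of Slc32a1 (38.9% to 43.3%) against 0.616% of excitatory neurons and 0.986% of microglia. UMIs of both Slc32a1 and Slc17a7 were in 7.09% of inhibitory neurons, where the share with Slc17a7 was 18.8% (17.1% to 20.6%), near that in microglia.

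Slc17a8 was also present in a few inhibitory neurons. Of 2188 inhibitory neurons 7 had a UMI of it, 32 UMIs in all, and 28 of these were in 4 cells with 3 to 18 UMIs each. These 4 cells lay in 1 cluster of 111 inhibitory neurons led by Cnr1, Sncg and Htr3a, which stayed unnamed because its Sncg and Vip scores were close. They came from 3 libraries, 1 of rank 1 and 2 of rank 4. Each of the 4 cells also had UMIs of Slc32a1, of Cnr1, the cannabinoid receptor gene, and of the neuropeptide gene Cck, and 3 of them had UMIs of Slc17a7, 3 of Gad2 and 3 of Sncg. The cluster's level of Slc17a8, 61.3 CPM, thus rests on those cells. They were picked out after their values were seen.

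Slc1a2 (2:102658659-102790784, plus strand), the main glutamate uptake gene of astrocytes, was highest in astrocytes. In the 6 libraries of replicates 1 to 3 it lay between 3058 and 3451 CPM whatever the rank. In replicates 4 and 5 it was 9750 and 7789 CPM in rank 1 and 8180 and 4648 CPM in rank 4, on average 2.32 times as high as in replicates 1 to 3. These sets of libraries did not overlap, and neither did 33.9% of all genes in astrocytes with at least 10 CPM. Both sets held both ranks, and the header version and any other difference in preparation between the sets cannot be told apart. In contrast Slc1a3 (15:8634124-8710764, minus strand) lay between 2284 and 3429 CPM in astrocytes over all 10 libraries, 2609 ± 366, and the sets overlapped. Strand use in counting is not given in the sources used here, and genes on the opposite strand overlap Slc1a2 (Gm13872), Slc32a1 (Gm14205), Slc6a11 (Gm8132) and Slc6a13 (Gm24855). Genes on the same strand overlap Slc1a3 (Gm37310), Slc17a6 (Gm45072) and Slc17a7 (Mir7055). Whether reads of one gene were counted for the gene overlapping it was not tested.

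Some deep-layer neurons also carried Slc1a2. It reached 1358 ± 515 CPM in L5/6 NP neurons (n = 7) and 1329 ± 536 in L6 CT neurons (n = 8), each below astrocytes in every library. In L6 CT neurons the values were 975, 683, 1630 and 1959 CPM in replicates 1, 3, 4 and 5 of rank 1 and 956, 830.3, 2073 and 1522 CPM in the same replicates of rank 4. Replicate 2 held 9 and 16 such cells, under the minimum of 20, and was left out. Replicates 4 and 5 were 2.09 times as high as the others, without overlap, as in astrocytes, and 32.3% of genes there did not overlap. L6 CT neurons were above oligodendrocyte precursors, next in the order with 527 ± 211 CPM, in 8 of 8 libraries. L5 IT neurons held 517 ± 301 CPM, L2/3 IT 322, L6 IT 252 and L5 PT 237, against 332 in microglia. Among inhibitory neurons Vip held 494 CPM (n = 6) and Lamp5 392 CPM (n = 4), while Sst and Pvalb had lower means than microglia. Slc1a3 did not follow Slc1a2 in deep layers, with 25.7 CPM in L6 CT and 33.6 CPM in L5/6 NP neurons against 123 in microglia.

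The ratio of both genes was also taken within each cell type. Free RNA was not measured here, so its part in these ratios was not tested. The log2 ratio of Slc1a2 over Slc1a3 was 0.81 ± 0.65 in astrocytes and 0.90 ± 1.05 in microglia (n = 10 each). It was 5.80 ± 1.50 in L6 CT neurons, where the lowest of 8 libraries had 4.16 and the highest microglia value was 2.98. In L5/6 NP neurons it was 5.75 ± 1.81 with a lowest library at 2.88, and in L5 IT neurons 4.96 ± 1.44. L2/3 IT neurons had 2.63 ± 0.99, within the range of microglia for part of the libraries. L5 PT neurons had 3.48 ± 1.38 (1.49 to 5.45) and L6 IT neurons 3.41 ± 1.52 (1.22 to 5.59), although their levels of Slc1a2 were below that of microglia. Inhibitory subclasses had 3.74 ± 1.26 (Vip), 3.06 ± 0.94 (Sst), 3.05 ± 1.01 (Lamp5) and 2.15 ± 1.39 (Pvalb). After thinning, 84.5% of astrocytes on average over libraries had UMIs of both genes, against 2.44% of L6 CT neurons and 3.31% of microglia.

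**Figure D3:**
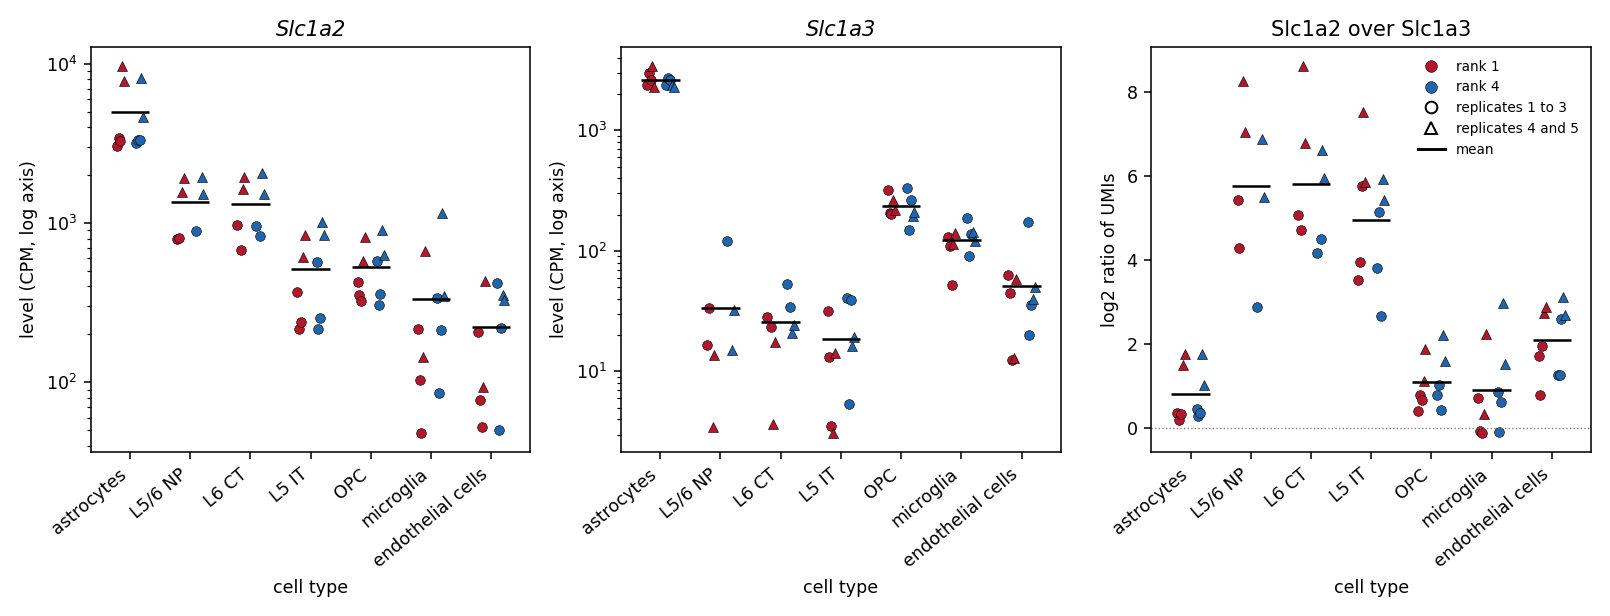
Level of Slc1a2 and of Slc1a3 in CPM on log axes (values under 1 CPM drawn at 1), and the log2 ratio of their UMIs, in 7 cell types, 1 point per library, coloured by rank and shaped by replicate set, with the mean as a line. Slc1a2 splits by replicate set in astrocytes while Slc1a3 does not, and the ratio is highest in L5/6 NP, L6 CT and L5 IT neurons.

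Other places of Slc1a3 were oligodendrocyte precursors, at 236 ± 58.6 CPM and above pericytes (131 ± 32.8) in 10 of 10 libraries, and fibroblasts. Only 1 library held at least 20 fibroblasts, with 920 CPM. The 110 fibroblasts of all libraries together held 227 UMIs, 976 CPM with an exact Poisson interval of 853 to 1112 that covers counting error only. Their log2 ratio of Slc1a2 over Slc1a3 was -0.41 in that 1 library.

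Slc1a1 (19:28835049-28913960, plus strand), the glutamate and cysteine transporter usually assigned to neurons, was highest in committed oligodendrocyte precursors. It was 284 and 314 CPM in replicates 1 and 5 of rank 1, and 373, 613, 502, 665 and 486 CPM in replicates 1 to 5 of rank 4. All 7 libraries with at least 20 such cells were above endothelial cells, which had 182 ± 44.6 CPM (n = 10). The next types overlapped: oligodendrocyte precursors with 138 ± 47.3, L5 PT neurons with 136 ± 37.1, Sst neurons with 119 ± 29.1, Pvalb neurons with 117 ± 49.7, Lamp5 neurons with 113.5 ± 25.2 and L6 CT neurons with 110.2 ± 21.9 CPM. L2/3 IT neurons held 85.2 ± 18.8 CPM. Astrocytes had the lowest mean of the types with at least 3 libraries, running from 0 through a median of 9.77 to 27.9 CPM, and mature oligodendrocytes (24.6) and microglia (22.4) were near it.

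The levels of Slc1a1 carry a limit of annotation. The gene 4430402I18Rik lies on the opposite strand over part of Slc1a1 and had almost the same profile: 447 ± 236 CPM in committed oligodendrocyte precursors, 151 ± 82.6 in endothelial cells, 210 ± 59.9 in oligodendrocyte precursors and 6.92 ± 3.85 in astrocytes. UMIs were counted for each of the 2 genes separately, and whether reads of one were counted for the other was not tested.

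Slc6a11 (6:114131241-114249952, plus strand), the GABA transporter of astrocytes, held 422 ± 88.9 CPM in astrocytes over 10 libraries, from 289 to 572. Lamp5 neurons came next with 65.9 ± 44.9 (n = 4), then Vip with 54.6 ± 31.6 (n = 6), L5/6 NP with 52.3 ± 30.9 (n = 7), oligodendrocyte precursors with 44.7 ± 19.6 and L6 CT with 44.4 ± 11.1 (n = 8). Each of those was above microglia (14.9 CPM on average) in every library that held both, 2.67 to 2.99 times on average, and neighbours in this order exceeded each other in 3 to 4 libraries out of 4 to 8.

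Slc6a13 (6:121300227-121337733, plus strand) was found in cells of vessels and coverings of the brain. Pericytes, the cells wrapped around capillaries, held 148, 169.6, 166, 53.3 and 107 CPM in replicates 1 to 5 of rank 1 and 98.6, 191, 232, 70.4 and 89.6 CPM in replicates 1 to 5 of rank 4. Smooth muscle cells had 5.49 ± 7.77, endothelial cells 2.46 ± 2.40 and astrocytes 0.848 ± 0.913 CPM. Fibroblasts, known for this transporter in the meninges, held 484 UMIs together, 2082 CPM (1900 to 2276, counting error only), with 1150 CPM in the 1 library with enough of them.

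**Figure D4:**
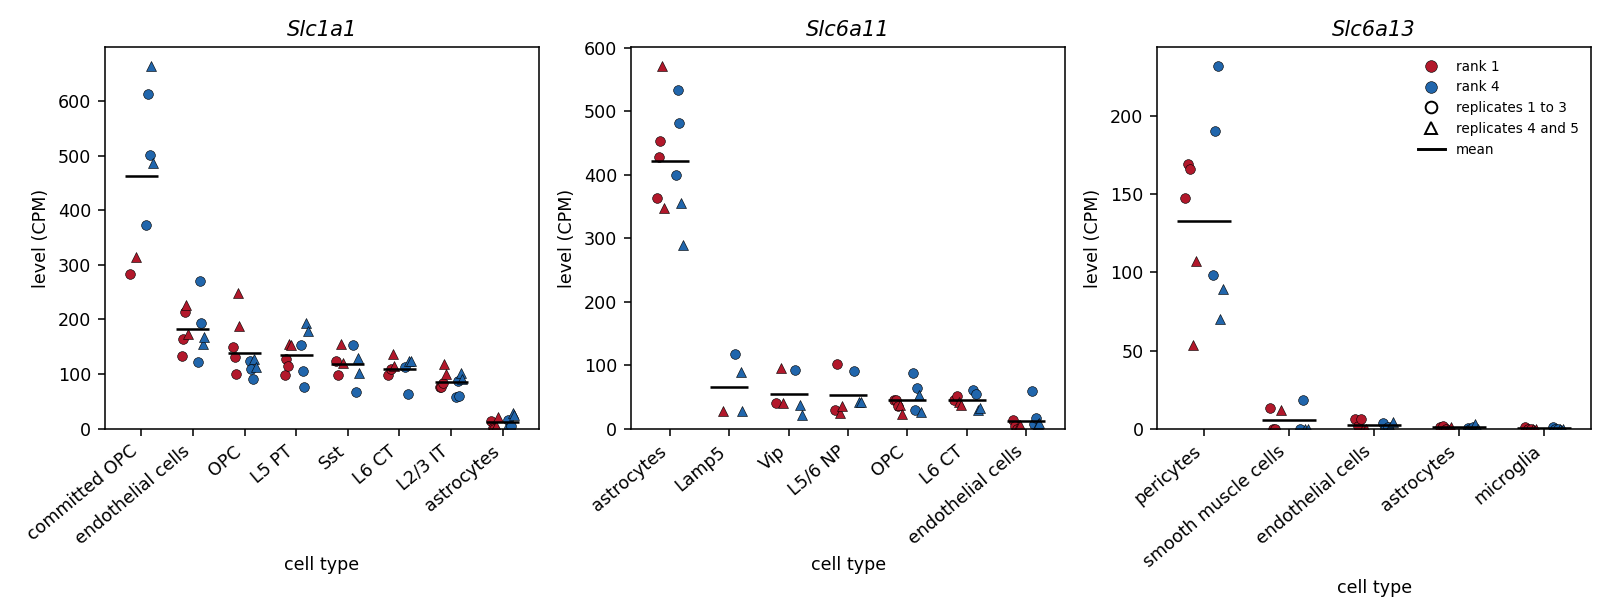
Level in CPM of Slc1a1, Slc6a11 and Slc6a13, each in its highest cell types and in comparison types, 1 point per library with at least 20 cells, coloured by rank and shaped by replicate set, with the mean as a line. Slc1a1 peaks in committed oligodendrocyte precursors (OPC), Slc6a11 in astrocytes and Slc6a13 in pericytes, the fibroblasts being left out for having 1 library.

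The genes whose levels followed each member most closely were taken over 19 cell types and 13363 genes, by Pearson's correlation of mean log2(CPM + 1), as a description. For Slc17a7 they were Sv2b (r = 0.98), a synaptic vesicle gene, and Nrgn (0.96). For Slc17a6 they were Nlrp6 (0.89), Trh (0.88), the thyrotropin-releasing hormone gene, and Nxph3 (0.87), and for Slc17a8 Arid3c (0.98), Slc15a5 (0.98) and Sla2 (0.95), all 6 highest in L5/6 NP neurons. For Slc32a1 they were the GABA synthesis gene Gad2 (0.99) with Dlx2 (0.98) and Dlx5 (0.97). For Slc1a3 they were Slc7a10 (0.95), Slc25a18 (0.93) and F3 (0.92), and for Slc6a11 9630001P10Rik (0.90), A430027H14Rik (0.89) and Clu (0.88). Slc1a2 had no gene as close, with Otx1 at 0.82, Nwd1 at 0.81 and 9630001P10Rik at 0.81. For Slc1a1 they were 4430402I18Rik (0.97), Nav1 (0.91) and Camsap2 (0.87), and for Slc6a13 Gm13470 (0.99), Jaml (0.98) and Gm36823 (0.98). Sv2b, Dlx2, Dlx5 and Clu were among the markers that named the types.

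Genes that work beside the transporters had these peaks. Gad1 and Gad2, which make GABA, were highest in Lamp5 neurons with 2529 ± 484 and 3457 ± 1085 CPM (n = 4). Glul, which makes glutamine from glutamate, was highest in astrocytes with 4722 ± 3050 CPM (n = 10).

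Whether social rank went with the levels of these genes was tested on UMIs summed per library and cell type, with edgeR's quasi-likelihood test and the header version as covariate, adjusted by Benjamini-Hochberg over all genes of a type. None of the 9 genes passed an adjusted p of 0.05. In 9 cell classes 43 tests of the 9 genes gave 0 calls, as did all 70104 tests of genes (0.0%), with 4 of the 43 at an unadjusted p under 0.05 against 2.3% of all genes. DESeq2 called 0 of these genes as well. In 9 neuron subclasses 44 tests gave 0 calls, beside 5 calls among all 68395 tests (0.00731%), with 5 of the 44 at an unadjusted p under 0.05 against 4.88% of all genes.

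In astrocytes, inhibitory neurons, excitatory neurons and pericytes the genes with a high level there had these values by rank, and none passed. Slc1a2 in astrocytes was 5471 ± 3094 CPM in rank 1 and 4538 ± 2120.3 in rank 4 (n = 5 each), which is 0.16 ± 0.23 on the log2 scale (with SE; edgeR, adjusted p = 1.00). Slc1a3 in astrocytes had log2 0.13 ± 0.20 and Slc6a11 log2 0.08 ± 0.21. With 1 library left out, Slc1a2 there ran from 0.0197 (without replicate 5 of rank 4) to 0.24, and Slc1a3 from 0.00495 (without replicate 4 of rank 1) to 0.207. Slc32a1 in inhibitory neurons had 653 ± 160 CPM in rank 1 and 555 ± 55.5 in rank 4, log2 0.26 ± 0.21, and was higher in rank 1 in 5 of 5 pairs of same-numbered libraries, short of the threshold (adjusted p = 1.00 by edgeR, 0.638 with the replicate number as block). Replicate 1 of rank 1 stood apart with 936 CPM, and without it the log2 fold change was 0.0514. Slc17a7 in excitatory neurons had log2 -0.16 ± 0.14, lower in rank 1 in 4 of 5 pairs, and -0.0692 without replicate 1 of rank 4. Slc6a13 in pericytes had log2 -0.03 ± 0.29.

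The genes of near-projecting neurons were compared over 4 libraries of rank 1 and 3 of rank 4. Slc17a6 was 133 ± 93.9 CPM in rank 1 and 179.6 ± 54.5 in rank 4 (log2 -0.21 ± 0.24), and Slc17a8 was 55.0 ± 17.7 and 86.0 ± 20.7 CPM (log2 -0.56 ± 0.29, lower in rank 1 in 3 of 3 pairs, adjusted p = 0.99 by edgeR). In L6 CT neurons Slc17a6 was 24.6 ± 11.1 CPM in rank 1 and 17.4 ± 5.01 in rank 4 (log2 0.48 ± 0.26, higher in 4 of 4 pairs, adjusted p = 1.00 by edgeR). These sizes moved with single libraries left out, and none changed sign. In L5/6 NP neurons Slc17a6 ran from -0.39 (without replicate 4 of rank 1) to -0.13 (without replicate 2 of rank 1). Slc17a8 there ran from -0.73 to -0.36, the latter without replicate 5 of rank 1. Slc17a6 in L6 CT neurons was 0.29 without replicate 5 of rank 1, 0.32 without replicate 5 of rank 4 and at most 0.63.

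Slc1a1 in oligodendrocyte precursors had 150, 131, 101, 248 and 188 CPM in rank 1 and 124, 109, 91.3, 128 and 114 CPM in rank 4, replicates 1 to 5 each. All 5 pairs had more in rank 1, the ranks overlapped, and the log2 fold change was 0.50 ± 0.20 (adjusted p = 1.00 by edgeR, adjusted p = 0.281 with the replicate block). Over the alternative filters, fits, clusterings and sets of libraries it ran from 0.21 to 0.87 and never passed. In committed oligodendrocyte precursors only 2 libraries of rank 1 had 20 cells, so there was no test, and both were below the 5 of rank 4. There, 5.2% of genes with at least 10 CPM did not overlap between the ranks.

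**Figure D5:**
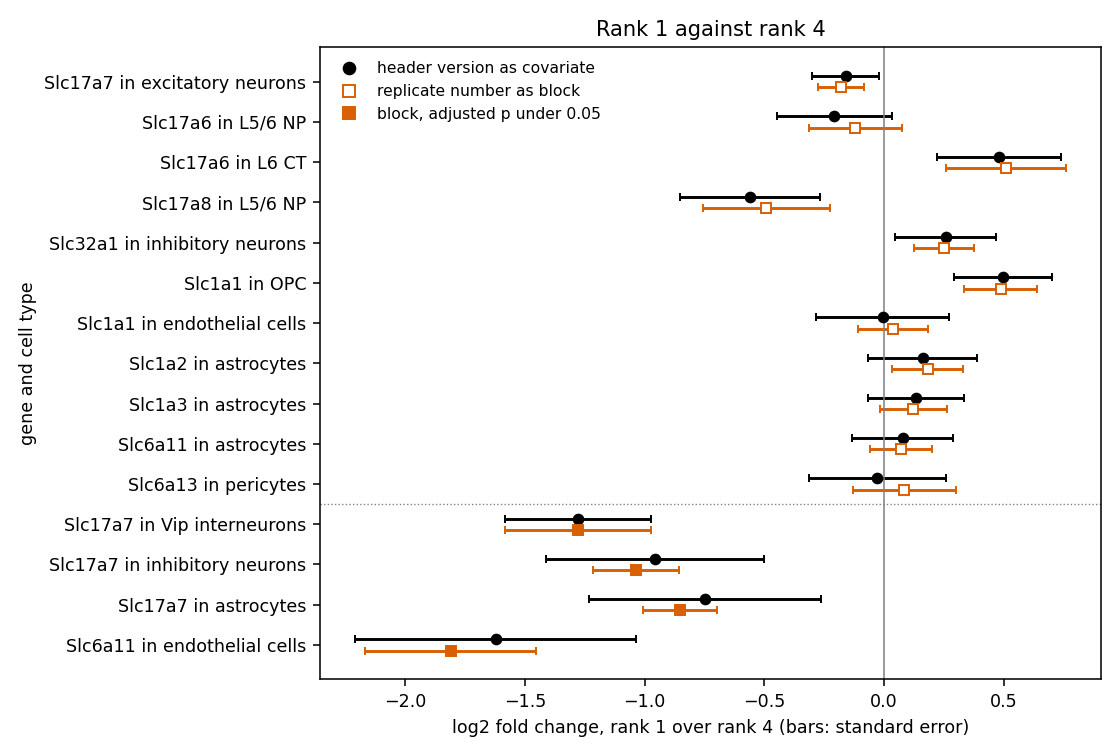
Log2 fold change of rank 1 over rank 4 with its standard error, with the header version as covariate (black circles) or with the replicate number as block (orange squares, filled where the adjusted p is under 0.05). Above the dotted line are genes in cell types with a high level of them, where no value passed; below it are genes in types where their level is low.

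Same-numbered libraries of both ranks varied together, so the fit was also made with the replicate number as block. With the block, 239 of 74993 class tests passed (0.319%), 3 of them of these genes, and 273 of 67961 subclass tests (0.402%), 2 of them of these genes. Slc17a7 was lower in rank 1 in astrocytes by 0.85 ± 0.16 on the log2 scale (adjusted p = 0.00251 by edgeR with the replicate block, 1.01% of genes called there), in 5 of 5 pairs. It was lower in inhibitory neurons by 1.04 ± 0.18 (adjusted p = 0.00265, 0.108% called), in 4 of 5 pairs. With the header version as covariate these values were -0.75 in astrocytes and -0.96 in inhibitory neurons. They became -1.26 and -1.48 without replicate 1 of rank 1, and -0.19 and -0.51 without replicate 1 of rank 4. In that fit Slc17a7 was lower in rank 1 in all 9 classes tested (median log2 -0.58) and all 9 subclasses tested (median -0.30). It passed in none of them. The inhibitory class held 3 subclusters (298, 8 and 65 cells) whose leading genes included more markers of another class than of inhibitory neurons. The last had Tbr1 and Sv2b of excitatory neurons among its leading genes and held 262 of the 1374 UMIs of Slc17a7. Without the 3 subclusters, an alternative chosen after seeing the data, the change was -0.97 ± 0.20 (adjusted p = 0.0464 by edgeR with the replicate block, 0.0715% called). In the Vip subclass the change was -1.28 ± 0.30 (adjusted p = 0.0124, 0.492% called) over 3 pairs. Slc6a11 in endothelial cells fell by 1.81 ± 0.36 (adjusted p = 0.0234, 0.163% called), in 5 of 5 pairs. Slc1a3 in L5/6 NP neurons, which did not reach the count filter of the other fit, had -2.08 ± 0.48 (adjusted p = 0.0351, 0.274% called) from 61 UMIs in all. Without the filter on low counts and without the block, Slc1a3 there had -2.02 (adjusted p = 0.0085 by edgeR, 0.0566% called) and Slc17a7 in inhibitory neurons -0.96 (adjusted p = 0.0356, 0.0717% called).

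The calls of the blocked fit were in cell types where the gene's mean level was below that of microglia in the same libraries. Slc17a7 in Vip neurons was 96.6, 68.7 and 161 CPM in replicates 1, 4 and 5 of rank 1 and 214, 307 and 318 CPM in rank 4. These values did not overlap, nor did 7.91% of genes in Vip neurons with at least 10 CPM. With the header version as covariate the adjusted p was 0.0596. In astrocytes Slc17a7 was 118, 30.3, 28.3, 124 and 367 CPM in rank 1 and 204, 44.6, 41.9, 431 and 443 CPM in rank 4, and the ranks overlapped. Slc6a11 in endothelial cells was 13.7, 3.88, 0, 5.20 and 5.15 CPM in rank 1 and 59.2, 6.65, 16.4, 8.20 and 8.83 CPM in rank 4. Replicate 1 of rank 4 held 96 of the 155 UMIs. Slc1a3 in L5/6 NP neurons was 16.4, 33.8, 3.47 and 13.6 CPM in replicates 1, 2, 4 and 5 of rank 1. In replicates 1, 4 and 5 of rank 4 it was 120, 15.2 and 32.6 CPM, and the ranks overlapped. Replicate 1 of rank 4 held 29 of the 61 UMIs of Slc1a3.

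Markers of other cell types were summed in the same cells, and their part in the result was not tested. The 6 excitatory neuron markers summed to 115 to 303 CPM (median 177) in astrocytes of rank 1 and 106 to 336 (median 290) in those of rank 4. The sum was lower in rank 1 in 4 of 5 pairs, all 6 markers were detected, and 6 of 6 had a lower mean in rank 1. In inhibitory neurons the same sum was 17.9 to 170 CPM (median 85.7) in rank 1 and 25.1 to 261 (median 181) in rank 4. It was lower in rank 1 in 4 of 5 pairs, with 6 of 6 markers lower on average. In Vip neurons it was 159 to 211 CPM in rank 1 and 209 to 313 in rank 4, lower in rank 1 in 3 of 3 pairs, with 4 of 6 markers lower on average. In microglia this sum of excitatory markers had medians of 210 CPM in rank 1 and 245 CPM in rank 4. There it was lower in rank 1 in only 1 of 5 pairs, with 6 of 6 markers lower on average. In endothelial cells it was lower in rank 1 in 4 of 5 pairs, with 6 of 6 markers lower on average. For Slc6a11 in endothelial cells, the 9 astrocyte markers summed to 338 to 997 CPM (median 569) in rank 1 and 492 to 1258 (median 578) in rank 4. That sum was lower in rank 1 in 3 of 5 pairs, with 9 of 9 markers lower on average. In L5/6 NP neurons these 9 markers summed to 385 to 963 CPM (median 621) in rank 1 and 498 to 1399 (median 521) in rank 4. The medians thus ran opposite to the means (648 and 806 CPM). The sum was lower in rank 1 in 3 of 3 pairs, with 9 of 9 markers lower on average. Slc17a7 in excitatory neurons, where the gene is high, did not pass in either fit (adjusted p = 0.477 by edgeR with the replicate block).

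Among the other genes of these pathways none passed with the header version as covariate. The lists were 8 other glutamate and GABA carriers (52 tests), 5 glutamine carriers (48), 10 enzymes of glutamate and GABA (147), 7 subunits of the vesicle proton pump (125) and 3 genes of the sodium pump and potassium channel of glia (39), with 0 calls each. With the replicate block some of these genes passed in a type. Glul and Gad2 were lower in rank 1 in L6 IT neurons (log2 -0.74 and -2.16, adjusted p = 0.0471 and 0.0162 by edgeR, 0.287% of genes called there). This is the subclass with Npy and Cck among the leading genes of its larger subcluster. Gad2 had 86 UMIs in all there, 0 to 8.46 CPM in rank 1 and 4.69 to 34.1 CPM in rank 4. Glul lay between 21.5 and 164 CPM there, and both genes were far below their peaks given above. The glutamine carrier gene Slc38a2 was higher in rank 1 in smooth muscle cells (0.81, adjusted p = 0.047 by edgeR, 0.633% called).

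The 4 values with a test of their own gave no difference between ranks beyond the spread of the libraries, by two-sided exact permutation tests whose smallest possible p is 0.00794 and with adjustment over the 4 values. The share of excitatory neurons with a UMI of Slc17a6, after thinning to 1000 UMIs, was 1.48% ± 0.87 in rank 1 and 1.11% ± 0.57 in rank 4 (n = 5 each, exact p = 0.444, adjusted 0.952). The difference of 0.379 percentage points ran from 0.139 without replicate 4 of rank 1 to 0.705 without replicate 2 of rank 1. The log2 ratio of Slc17a6 over Slc17a7 in these neurons was -7.06 ± 1.24 and -7.30 ± 0.88 (exact p = 0.579, adjusted 0.952). The share of inhibitory neurons with a UMI of Slc17a8 was 0.0719% ± 0.161 and 0.253% ± 0.415 (exact p = 0.722, adjusted 0.952), and the difference of -0.181 points was -0.00474 without replicate 1 of rank 4. The log2 ratio of Slc1a2 over Slc1a3 in astrocytes was 0.83 ± 0.74 and 0.78 ± 0.63 (exact p = 0.952, adjusted 0.952). It was higher in rank 1 in only 1 of 5 pairs, that of replicate 5 (1.77 in rank 1 and 1.02 in rank 4). Within replicates 1 to 3 the 6 values of this ratio lay between 0.20 and 0.44, and within replicates 4 and 5 the 4 values lay between 1.02 and 1.77.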

How the data were processed

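Droplet RNA sequencing of dissociated cortex was deposited as raw UMI counts per gene and cell barcode. The authors' counts came from Cell Ranger: the file headers name software version 3.1.0 for replicates 1 to 3 and 4.0.0 for replicates 4 and 5 of both ranks, while the submitters' processing notes name 4.0.0 and the genome build mm10. The 30406 genes in both gene lists, holding at least 99.4% of each library's UMIs, were used. Barcodes with at least 500 genes and at most 15% mitochondrial UMIs were kept. Scrublet, run in scanpy 1.11.5 with 0.06 as the expected rate, marked 3095 doublets, which were removed. It marked none in replicate 1 of both ranks, where a threshold of 0.247 was used.

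Cells were clustered on 2000 variable genes, 30 principal components and 15 neighbours (Leiden, resolution 1, igraph 0.11.9) into 23 clusters, 2 of them unnamed. The 9 genes and the pathway lists were left out of clustering and naming. Names needed at least 3 markers found in at least 10% of cells and a lead over the next type. The 9 genes and the lists were chosen with earlier results of these data known. Named genes were all 9, the 3 closest genes of each, and list genes that passed a rank test, with 3 enzymes for their peaks. Some genes that this rule names are not reported here.

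UMIs were summed per library and type with at least 20 cells and at least 3 libraries per rank, and tested with edgeR 4.0.16 (R 4.3.3; TMM, filterByExpr, quasi-likelihood test, header version as covariate, Benjamini-Hochberg within a type, threshold 0.05). The test was checked on simulated data. Alternatives were DESeq2 1.42.0, other filters, clusterings and sets of libraries, and the replicate number as block. Same-numbered libraries of both ranks deviated together in all 40 comparisons over 8 classes (correlations from 0.59 to 0.94) and in all 24 within replicates 1 to 3 (0.298 to 0.912), so the numbers were taken to pair the libraries. The comparisons repeat the same pairs of libraries over the classes, and differently numbered libraries were not compared. The difference between the sets of replicates enters the first of these ranges. The labels do not say what a number stands for. Gene positions are those of GENCODE for GRCm38.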

Additional observations from a re-analysis of the deposited data

Results flagged for a closer look

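In rank 1 the share of inhibitory neurons with a UMI of Slc17a8 was 0.360% in replicate 5 and 0 in the other 4 libraries. For the log2 ratio of Slc17a6 over Slc17a7 in excitatory neurons, replicate 2 stood far below the others in both ranks, at -9.25 in rank 1 (next library -6.88) and at -8.79 in rank 4 (next library -7.25). Replicate 2 held few cells of the subclasses that carry Slc17a6, with 9 L6 CT and 25 L5/6 NP cells in rank 1 and 16 and 3 in rank 4, against 951 and 151 in replicate 5 of rank 1, and their part in this ratio was not tested. In astrocytes of rank 1, Slc17a7 was 367 CPM in replicate 5 (next library 124). In inhibitory neurons of rank 1, Slc32a1 was 936 CPM in replicate 1 (next library 628). In endothelial cells of rank 4, Slc6a11 was 59.2 CPM in replicate 1 (next library 16.4). Of 39 groups of libraries checked, 6 held such a distant library, where chance gives about 1 in 20.

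Slc1a1 was higher in rank 1 in oligodendrocyte precursors and in inhibitory neurons, and lower in rank 1 in astrocytes, in 5 of 5 pairs of same-numbered libraries each. The log2 fold changes differed by 1.08 between oligodendrocyte precursors and astrocytes, and by 0.73 between inhibitory neurons and astrocytes. These differences were not tested, and the level in astrocytes was low, 8.56 ± 9.15 CPM in rank 1 and 15.5 ± 11.7 in rank 4 (SD, n = 5 each).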

How the results depend on the processing

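The level of each of the 9 genes in its highest type among those with more than 1 library moved by less than the spread between libraries under a mitochondrial limit of 30%, a minimum of 1000 genes, doublets kept and Leiden resolution 2. Calls by rank depended on the fit. For the 9 genes the count in classes was 1 without the filter on low counts, and in subclasses it was 1 without that filter, 2 at the mitochondrial limit of 30% and 1 at resolution 2. Over all genes the class count was 1 with DESeq2, 39 without the filter, 8 in replicates 4 and 5 and 0 to 6 with 1 library left out. The subclass count was 1 with DESeq2, 97 without the filter, 0 without the version covariate, 0 in replicates 1 to 3, 3 in replicates 4 and 5, 0 to 10 with 1 library left out, 15 at the 30% limit, 0 with at least 1000 genes, 2 with doublets kept and 13 at resolution 2. The cause was not tested.

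With the replicate block (the paired fit) the 9 genes had 3 calls in classes and 2 in subclasses, and all genes 239 and 273. The paired differences of the 4 single values were 0.379 percentage points (Slc17a6 share), -0.181 (Slc17a8 share), 0.06 (log2 Slc1a2 over Slc1a3) and 0.24 (log2 Slc17a6 over Slc17a7). An exact sign-flip test of 5 pairs cannot go below p = 0.0625, so it could not pass the threshold. Leaving out 4 subclusters of excitatory neurons with more leading markers of another class than of their own (1 of them named L6 IT), chosen after seeing the data, gave -0.17 for Slc17a7 in these neurons.

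Some small differences changed sign, none past the threshold. The Slc17a8 share was 0.0265 in replicates 4 and 5. The log2 ratio of Slc1a2 over Slc1a3 was -0.067 in replicates 1 to 3 and -0.18 to 0.31 with 1 library left out, and that of Slc17a6 over Slc17a7 was -0.13 to 0.79. The log2 fold change of Slc17a6 in L5/6 NP neurons was 0.0103 in replicates 4 and 5, and that of Slc1a2 in astrocytes -0.0218 in replicates 1 to 3. Over all alternatives Slc1a2 in astrocytes reached 0.48, and Slc1a3 there, which kept its sign, reached 0.31. Slc6a11 in astrocytes had -0.20 in replicates 1 to 3 and -0.12 to 0.18 with 1 library left out. Its highest value over all alternatives was 0.54. Slc1a1 in endothelial cells had 0.0375 with the replicate block, 0.36 in replicates 4 and 5, 0.0247 at the 30% limit, 0.16 with doublets kept, 0.035 at resolution 2 and -0.15 to 0.21 with 1 library left out. Its lowest value over all alternatives was -0.25. Slc6a13 in pericytes had 0.0855 with the replicate block, 0.17 in replicates 4 and 5, 0.0333 with doublets kept and -0.23 to 0.21 with 1 library left out.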
